A study of Mus musculus with 3 samples.

Results

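Necroptosis and death receptor signaling was followed here through 9 genes, *Ripk1*, *Ripk3*, *Mlkl*, *Casp8*, *Cflar*, *Fas*, *Birc2*, *Birc3* and *Ripk2*, which were picked by symbol from the 32285 genes of the count matrices. Their transcripts were counted by single-cell RNA sequencing in droplets, in bone marrow derived macrophages (BMDMs), the macrophages that grow from marrow cells cultured with medium conditioned by L929 cells. The marrow came from female C3H/HeN mice of 6 to 8 weeks. The paper's culture section has marrow pooled across mice, while its single-cell section names BMDMs of 3 mice that were treated independently. BMDMs received purified lipoproteins of *Borrelia burgdorferi* (*Bb*LP), the Lyme disease spirochete, at 1 µg/mL over 1 hour (LP1) or over 4 hours (LP4), and the control cells (Ctrl, labelled untreated) received PBS and were collected at 4 hours. Each condition is 1 library made from the pooled cells of 3 wells.

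With 1 library per condition, the spread between cultures was not measured and no difference between conditions could be tested. All intervals below are at the 95% level and cover counting error only. A level is given in CPM, the unique molecular identifiers (UMIs) of a gene summed over the cells of a library per 1000000 UMIs of those cells. A difference is given as the log2 ratio of CPM between libraries. Both ratios to Ctrl share the same control library, so they are not independent of each other, and LP1 also differs from Ctrl in the time of collection. The levels rest on 6071 Ctrl, 5065 LP1 and 4670 LP4 cells with 35688939, 52475723 and 61402275 UMIs. A Ctrl cell had a median of 5133 UMIs, an LP1 cell 9343 and an LP4 cell 11784. Pairs of libraries shared between 4 and 10 barcode sequences. All 13 macrophage markers had UMIs in every library, and their summed level was 12403 CPM in Ctrl, 12895 CPM in LP1 and 12691 CPM in LP4. Of the 10 neutrophil markers none was at 0, and their summed level was 390 CPM in Ctrl, 291 CPM in LP1 and 564 CPM in LP4. The 6 stromal markers summed to 4.29, 5.85 and 19.7 CPM in the same order, and 3 of 6 T cell markers were at 0 in each library.

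Death receptors of the tumor necrosis factor family, such as Fas, and Toll-like receptors can lead a macrophage to survive and secrete cytokines or to die. RIPK1 is the kinase on which these outcomes meet. Once it is modified with ubiquitin by the inhibitor of apoptosis proteins cIAP1 and cIAP2 it serves as a scaffold for NF-κB activation. Freed of that modification it can join caspase-8 for apoptosis or RIPK3 for necroptosis, a lytic death in which RIPK3 phosphorylates MLKL and MLKL disrupts the plasma membrane. Caspase-8, paired with its inactive relative cFLIP, cleaves RIPK1 and RIPK3 and holds necroptosis back.

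The members fell into distinct groups after 4 hours of *Bb*LP. *Mlkl* and *Fas* were about 4 times as high in LP4 as in Ctrl, with a fold of 4.31 (3.90 to 4.77) for *Mlkl* and 3.90 (3.61 to 4.21) for *Fas*. *Casp8* and *Birc2* were about doubled, with a fold of 2.06 (1.95 to 2.17) and 1.90 (1.65 to 2.20). In CPM, *Cflar*, *Birc3*, *Ripk1* and *Ripk2* were within 1.2-fold of Ctrl, and *Ripk3* was at 0.648 times its Ctrl level (0.565 to 0.743). Scaled by median-of-ratios factors instead, *Cflar* was at a log2 ratio of 0.44, *Birc3* and *Ripk1* at 0.40 and *Ripk2* at 0.28. After 1 hour no member was 1.5-fold or more from Ctrl.

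**Figure D1:**
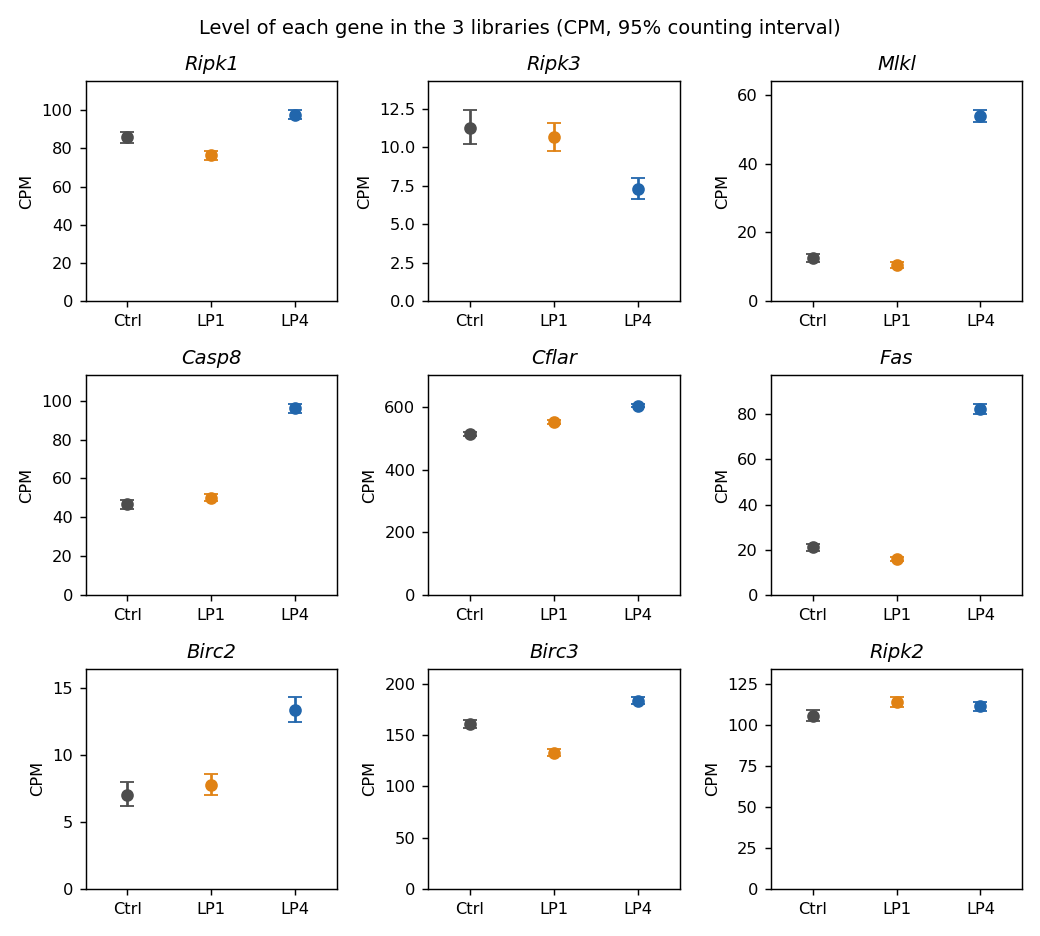
Level of each of the 9 genes in Ctrl, LP1 and LP4, in CPM on a linear axis that starts at 0 and differs between panels. Points are single libraries and bars are exact Poisson 95% intervals of the count. *Mlkl*, *Fas*, *Casp8*, *Birc2*, *Cflar*, *Birc3* and *Ripk1* stand highest in LP4, the last 3 by little, and *Ripk3* stands lowest there.

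The kinase genes *Ripk1* and *Ripk3* and the executioner gene *Mlkl* form the core of the necroptosis machinery. *Mlkl* was at 12.5 CPM (11.3 to 13.7) in Ctrl, 10.6 CPM (9.75 to 11.5) in LP1 and 53.7 CPM (51.9 to 55.6) in LP4, from 445, 557 and 3300 UMIs. LP4 was thus the only library with a high *Mlkl* level, while LP1 lay slightly below Ctrl. Its log2 ratio was -0.23 (-0.41 to -0.05) for LP1 over Ctrl and 2.11 (1.96 to 2.25) for LP4 over Ctrl, and it was 2.34 (2.21 to 2.47) for LP4 over LP1. Only 3.36% of the 14361 genes compared between LP4 and Ctrl had a larger ratio.

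*Ripk3*, the gene of the kinase that phosphorylates MLKL, went the other way. It was at 11.3 CPM (10.2 to 12.4) in Ctrl, 10.6 CPM (9.77 to 11.6) in LP1 and 7.30 CPM (6.64 to 8.00) in LP4, from 402, 558 and 448 UMIs. The Ctrl and LP1 intervals overlapped, and the LP4 interval lay below both. The log2 ratio was -0.08 (-0.27 to 0.11) for LP1 over Ctrl, -0.63 (-0.82 to -0.43) for LP4 over Ctrl and -0.54 (-0.73 to -0.36) for LP4 over LP1. Of the 14361 genes compared between LP4 and Ctrl, 72.3% had a larger ratio, so a fall of this size was not rare. The ratio to Ctrl stayed below 0 under every scaling tried, but it fell short of 1.5-fold with the TMM factors of edgeR, at -0.46, and with median-of-ratios factors, at -0.42.

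*Ripk1* moved little. It was at 85.7 CPM (82.6 to 88.7) in Ctrl, 76.3 CPM (74.0 to 78.7) in LP1 and 97.6 CPM (95.2 to 100.1) in LP4, from 3057, 4006 and 5995 UMIs. Its order was LP1, Ctrl, LP4, with no overlap of the counting intervals, and its log2 ratio to Ctrl was -0.17 (-0.23 to -0.10) at 1 hour and 0.19 (0.13 to 0.25) at 4 hours. The 5′ end of *Ripk1* overlaps *Serpinb6a* on the opposite strand, and it is the only member whose gene overlaps another gene of the matrices.

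Of the genes at the apoptotic branch, *Fas* encodes the death receptor, *Casp8* the initiator caspase recruited to it, and *Cflar* the caspase-8 inhibitor cFLIP. *Fas* was at 21.1 CPM (19.6 to 22.7) in Ctrl, 15.9 CPM (14.9 to 17.0) in LP1 and 82.3 CPM (80.1 to 84.6) in LP4, from 754, 835 and 5054 UMIs. It was lowest at 1 hour and highest at 4 hours, and none of the intervals overlapped. The log2 ratio was -0.41 (-0.55 to -0.26) for LP1 over Ctrl, the lowest of the 9 members at that time, and 1.96 (1.85 to 2.07) for LP4 over Ctrl.

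*Casp8* was at 46.7 CPM (44.4 to 48.9) in Ctrl, 50.2 CPM (48.3 to 52.1) in LP1 and 96.0 CPM (93.6 to 98.5) in LP4. The Ctrl and LP1 intervals overlapped, and LP4 stood apart from both. Its log2 ratio to Ctrl was 0.11 (0.02 to 0.19) at 1 hour and 1.04 (0.96 to 1.12) at 4 hours. *Cflar*, whose gene lies 36489 bp upstream of *Casp8* on the same strand of chromosome 1, was at 513 CPM (506 to 521) in Ctrl, 550 CPM (544 to 556) in LP1 and 604 CPM (598 to 610) in LP4. *Cflar* was thus lowest in Ctrl and highest in LP4 without overlap, but by little. Its log2 ratios to Ctrl were 0.10 (0.07 to 0.13) at 1 hour and 0.23 (0.21 to 0.26) at 4 hours.

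*Birc2* and *Birc3* are neighbouring paralogs on chromosome 9, separated by 11634 bp, and encode cIAP1 and cIAP2, the ubiquitin ligases that act on RIPK1. Whether reads were split between them was not tested. *Birc2* was at 7.03 CPM (6.19 to 7.96) in Ctrl, 7.76 CPM (7.02 to 8.55) in LP1 and 13.4 CPM (12.5 to 14.3) in LP4, and the first 2 did not differ beyond their intervals. Its log2 ratio to Ctrl was 0.14 (-0.09 to 0.37) at 1 hour and 0.93 (0.72 to 1.13) at 4 hours. *Birc3* was at 161 CPM (157 to 165) in Ctrl, 133 CPM (130 to 136) in LP1 and 183 CPM (180 to 187) in LP4. Like *Fas*, it was lowest at 1 hour, with a log2 ratio to Ctrl of -0.27 (-0.32 to -0.22), and highest at 4 hours, at 0.19 (0.14 to 0.24).

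*Ripk2* encodes the kinase that carries signals of the NOD receptors for bacterial peptidoglycan and has no known part in necroptosis execution. As a fold between its highest and lowest library, it had the narrowest range of the 9 genes, with 106 CPM (102 to 109) in Ctrl, 114 CPM (111 to 117) in LP1 and 111 CPM (109 to 114) in LP4. LP1 and LP4 overlapped. Its log2 ratio to Ctrl was 0.11 (0.05 to 0.17) at 1 hour and 0.08 (0.02 to 0.13) at 4 hours. For LP4 over LP1 it was -0.03 (-0.08 to 0.02), and its sign turned with TMM factors, at 0.07, and with median-of-ratios factors, at 0.10.

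**Figure D2:**
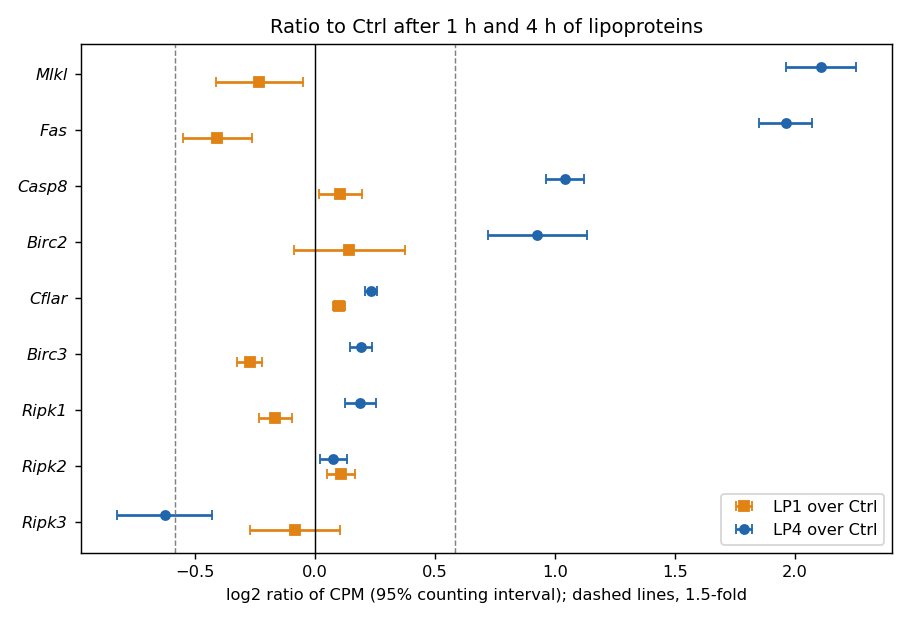
Log2 ratio of CPM for LP1 over Ctrl (orange squares) and LP4 over Ctrl (blue circles), ordered by the 4 hour ratio, with exact conditional binomial 95% intervals. Dashed lines mark 1.5-fold. All 1 hour values lie between the dashed lines, and 4 genes lie to the right of them and *Ripk3* to the left at 4 hours.

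As counts against all genes compared, 0 of the 9 members were 1.5-fold or more above Ctrl at 1 hour, where 5.78% of all genes were, and 0 were that far below, where 9.07% of all genes were. At 4 hours 4 of 9 were 1.5-fold or more above Ctrl beside 20.7% of all genes, and 1 of 9 was that far below beside 29.4%. A threshold of 2-fold left 3 of 9 above, *Mlkl*, *Fas* and *Casp8*, beside 11.6% of all genes, and 0 of 9 below beside 15.6%. For LP4 over LP1, 4 of 9 were 1.5-fold or more higher beside 18.8% of all genes and 0 were lower beside 24.4%. The median log2 ratio over the 9 members was -0.08 at 1 hour and 0.23 at 4 hours, beside -0.04 and -0.15 over all genes compared. All 9 members had the 20 UMIs in a pair of libraries that a comparison required. Scaling moved the middle of the comparison. With TMM factors the median of all genes for LP4 over Ctrl went from -0.15 to 0.02. The genes 1.5-fold higher then made up 53.3% of all those past that fold in place of 41.3%. The members past it were 4 higher, beside 26.1% of all genes compared, and 0 lower, beside 22.9%. With median-of-ratios factors the median of all genes was 0.06, and the genes higher made up 56.0% of those past 1.5-fold. The member counts were the same, beside 27.3% of all genes higher and 21.4% lower. For LP1 over Ctrl the genes higher made up 38.9% of those past 1.5-fold, or 49.4% with TMM factors, and median-of-ratios factors gave 1051 genes on each side. For LP4 over LP1 it was 43.5%, 51.0% with TMM factors and 53.6% with median-of-ratios factors.

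The number of cells with a UMI of a member was compared after each cell was thinned to 2000 UMIs, since LP4 cells held more UMIs per cell than Ctrl cells. This left 5949 Ctrl, 5052 LP1 and 4625 LP4 cells and set aside 122, 13 and 45 shallower ones. *Mlkl* was seen in 2.17% of Ctrl cells (1.81 to 2.57), 1.84% of LP1 cells (1.49 to 2.25) and 10.4% of LP4 cells (9.51 to 11.3). *Fas* was seen in 4.27% (3.77 to 4.81), 3.56% (3.07 to 4.11) and 14.8% (13.8 to 15.9). *Casp8* was seen in 9.11% (8.39 to 9.87), 9.66% (8.86 to 10.5) and 16.8% (15.8 to 17.9). In all 3 genes the LP4 share stood apart from the others, which overlapped each other. *Ripk3* was seen in 2.20% of Ctrl cells (1.84 to 2.61), 2.28% of LP1 cells (1.88 to 2.73) and 1.56% of LP4 cells (1.22 to 1.96), with the Ctrl and LP4 intervals overlapping. *Cflar* was seen in 60.1%, 63.4% and 68.0% of cells and *Birc2* in 1.48%, 1.86% and 2.62%, both beyond the intervals between Ctrl and LP4. The intervals of Ctrl and LP4 overlapped for *Ripk1* (15.6%, 14.7% and 17.4%), *Birc3* (27.0%, 23.0% and 29.3%) and *Ripk2* (18.6%, 17.8% and 18.8%). Thinning to 4000 UMIs left 4318 of 6071 Ctrl cells and 4537 of 4670 LP4 cells. *Ripk1* was then seen in 29.2% (27.8 to 30.5) and 32.1% (30.7 to 33.5) of them. *Birc3* was seen in 42.9% (41.4 to 44.4) and 47.9% (46.4 to 49.4), so that the intervals of these 2 genes no longer overlapped. Far more Ctrl than LP4 cells were set aside at this depth, and whether that moved the shares was not tested. Without thinning, the share of LP4 cells was 44.5% for *Mlkl*, 53.6% for *Fas* and 64.4% for *Casp8*, beside 6.70%, 10.7% and 23.1% of Ctrl cells. The unthinned *Ripk3* share was 6.23% in Ctrl and 8.84% in LP4, opposite in order to its CPM, and no order was read from it.

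**Figure D3:**
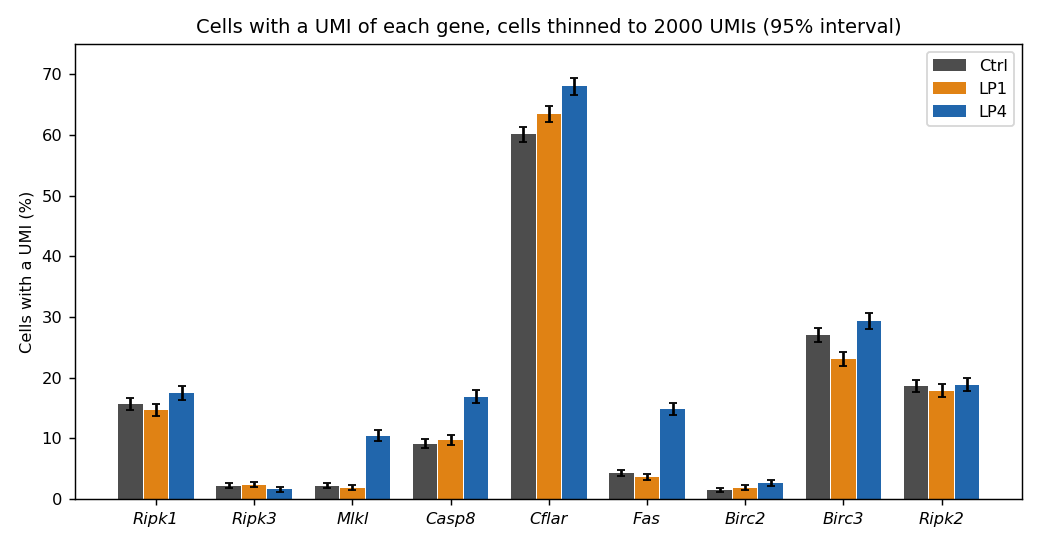
Percentage of cells with at least 1 UMI of each gene in Ctrl, LP1 and LP4 after thinning to 2000 UMIs per cell. Bars start at 0 and error bars are exact binomial 95% intervals. The LP4 bar stands above the Ctrl bar beyond the intervals for *Mlkl*, *Casp8*, *Cflar*, *Fas* and *Birc2*.

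Free RNA can give a UMI to a cell that does not express a gene, and the cultures held no cell type known to lack these genes. The neutrophil-like cells were the nearest comparison, with 21, 21 and 28 thinned cells in Ctrl, LP1 and LP4 and medians of 3947, 6261 and 9262 UMIs before thinning. *Ripk2* was seen in 0 of 28 such cells in LP4, where the limit of 3 counts of 28 is 10.7% and the exact interval reaches 12.3%, beside 18.8% of all LP4 cells. *Mlkl* was seen in 2 of 28 (7.14%, 0.877 to 23.5) and *Casp8* in 1 of 28 (3.57%, 0.0904 to 18.3). *Fas* was seen in 11 of 28 (39.3%, 21.5 to 59.4), above the 14.8% of all LP4 cells. Its level in the neutrophil-like cluster was 57.4 CPM (21.1 to 125) in Ctrl, 78.1 CPM (39.0 to 140) in LP1 and 313 CPM (246 to 392) in LP4. The counts were 6, 11 and 75 UMIs, and the Ctrl and LP1 intervals overlapped. These cells are too few to set a background for the shares of *Mlkl*, *Casp8* or *Ripk3*.

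Summed over the 9 genes, a thinned Ctrl cell held 1.97 UMIs on average, an LP1 cell 1.96 and an LP4 cell 2.56. None of the 9 genes was seen in 17.1% of cells for Ctrl, 16.6% for LP1 and 9.34% for LP4, and 3 or more were seen in 12.7%, 11.6% and 23.6%. The number of cells with UMIs of both members of a pair was set beside the product of their shares. Of the 36 pairs, the product lay within the interval of the observed share for 35 in both Ctrl and LP4 and for 34 in LP1. Pairs of rarely seen genes could hardly fall outside, such as *Ripk3* with *Birc2* in LP1 (0 cells, product 2.14), so no independence is read from this. The pairs outside were *Fas* with *Birc3* in Ctrl (94 cells, product 68.6), *Ripk1* with *Fas* in LP1 (43 cells, product 26.4), *Mlkl* with *Fas* in LP1 (8 cells, product 3.31) and *Ripk3* with *Fas* in LP4 (4 cells, product 10.7). These pairs were named after their values were seen, and cells of 1 library are not replicates.

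Cells were also grouped by genes other than the members, the pathway genes below and the genes that differed 1.5-fold or more between libraries. In 6 clusters each library had 50 cells or more, and these were compared. Clusters A (4964 cells), B (4157), C (3080) and D (2157) were macrophage-like, E (1012) was cycling-like and F (234) was dendritic cell-like by markers. The macrophage-like name rests on 7 to 9 of 13 macrophage markers being seen in at least 50% of the cells of A to D, and none of these markers was among the 10 leading genes of the 4 clusters. Those of D held *Ccnd1* and 5 *Mcm* genes (*Mcm3*, *Mcm4*, *Mcm5*, *Mcm6* and *Mcm7*), which serve entry into the cell cycle and DNA replication, though no marker of the cycling list. *Mlkl* stood higher in LP4 in 6 of 6 clusters, each beyond its interval, with log2 ratios from 1.67 (1.27 to 2.09) in E to 2.26 (1.95 to 2.59) in C. Its LP4 level spanned only 48.0 CPM in D to 59.7 CPM in A. *Fas* was also higher in 6 of 6 clusters beyond its intervals, but by unequal amounts, from a log2 ratio of 1.08 (0.28 to 1.97) in F and 1.42 (1.25 to 1.60) in A to 3.01 (2.60 to 3.43) in D. In Ctrl its level was 37.7 CPM (33.8 to 41.9) in A and 10.8 CPM (8.11 to 14.1) in D. In LP4 it was 101.0 CPM (95.9 to 106) in A and 86.7 CPM (80.0 to 93.7) in D. Cluster A thus stood above D beyond the intervals in both libraries, by a smaller fold in LP4. With finer grouping, at a resolution of 0.8, the macrophage-like cluster highest in Ctrl *Fas*, at 46.0 CPM (40.7 to 51.9), held 1350 Ctrl but 46 LP4 cells. Another held 183 Ctrl and 1221 LP4 cells, with *Fas* at 21.0 CPM (11.8 to 34.7) in Ctrl. Its log2 ratio was 2.21 (1.49 to 3.06). Whether the Ctrl and LP4 cells of A are alike was not tested.

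*Casp8* was higher in 6 of 6 clusters, 5 of them beyond the interval, with log2 ratios from 0.54 (-0.08 to 1.19) in F to 1.26 (1.10 to 1.43) in B. *Birc2* was higher in 6 of 6, 4 beyond the interval, from 0.42 (0.04 to 0.81) in A to 1.57 (1.09 to 2.09) in B. *Ripk3* was lower in 5 of 6 clusters, 3 of them beyond the interval, from -1.02 (-1.40 to -0.64) in C to 0.02 (-1.51 to 1.72) in F. The Ctrl level of *Ripk3* was highest in the cycling-like cluster E, at 17.4 CPM (13.2 to 22.5), and lowest in A, at 8.05 CPM (6.30 to 10.1). *Birc3* was also uneven among the clusters of Ctrl, with 256 CPM (246 to 267) in A and 97.3 CPM (90.8 to 104) in C. Its ratio for LP4 over Ctrl was from 0.01 (-0.07 to 0.08) in A to 0.36 (0.24 to 0.48) in C. *Cflar* ranged from -0.06 (-0.15 to 0.03) in E to 0.52 (0.46 to 0.57) in C, and *Ripk1* from 0.11 (-0.13 to 0.35) in E to 0.35 (-0.19 to 0.92) in F. *Ripk2* was the one member with intervals on both sides of 0, at -0.13 (-0.24 to -0.02) in B and 0.29 (0.16 to 0.42) in C. This did not hold under the other scalings, where B was at 0.04 (-0.07 to 0.15) with TMM factors and 0.08 (-0.03 to 0.18) with median-of-ratios factors, and at a resolution of 0.3 no cluster had a *Ripk2* interval below 0. At a resolution of 0.8 *Ripk2* intervals in CPM lay on both sides, at -0.16 (-0.28 to -0.04) and 0.81 (0.59 to 1.04). The other scalings, which raise every LP4 over Ctrl log2 ratio by 0.17 (TMM) or 0.21 (median-of-ratios), are not given at this resolution. The *Ripk3* intervals below 0 were 2 with TMM factors and 1 with median-of-ratios factors, in place of 3, and *Cflar* in E turned to 0.11 and 0.14. The differences between clusters were not tested, since the cells of a cluster come from 1 library per condition.

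**Figure D4:**
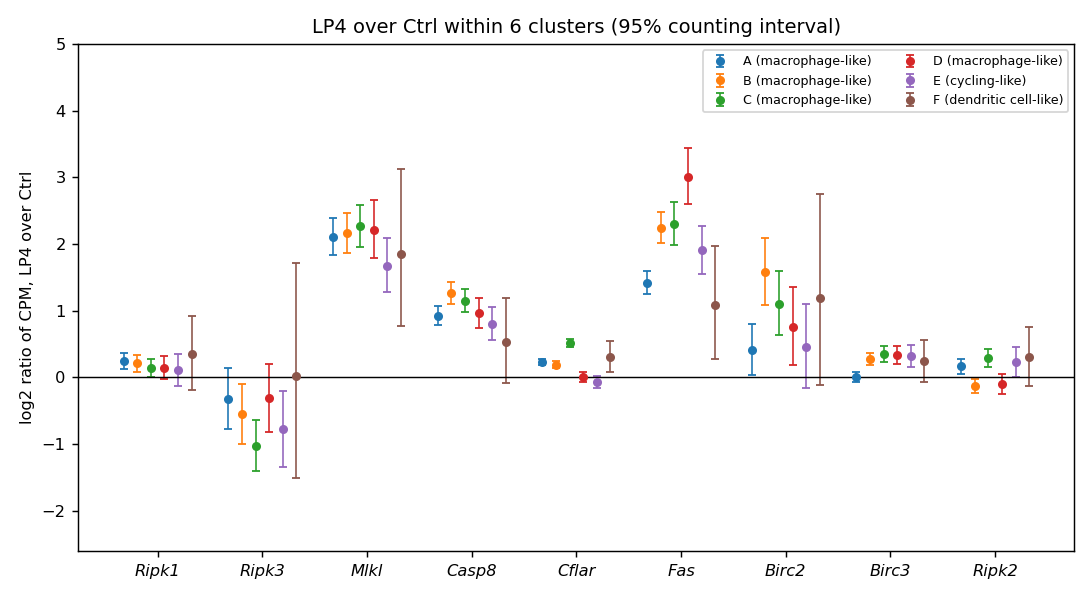
Log2 ratio of CPM for LP4 over Ctrl within each of 6 clusters, with exact conditional binomial 95% intervals. All 6 points of *Mlkl*, *Fas*, *Casp8*, *Birc2*, *Ripk1* and *Birc3* lie above 0, and those of *Fas* are spread from 1.08 in F to 3.01 in D.

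The mitochondrial limit of 5% set aside 273 barcodes in LP4, against 18 in Ctrl and 43 in LP1, so the members were also read in those LP4 barcodes, which had a median of 10884 UMIs. *Birc3* was at 144 CPM (132 to 158) there and *Ripk1* at 76.7 CPM (67.6 to 86.7), lower than in the cells under the limit by a log2 ratio of -0.35 (-0.48 to -0.21) and -0.35 (-0.54 to -0.17). *Fas*, at -0.24 (-0.44 to -0.05), *Casp8*, at -0.23 (-0.41 to -0.05), and *Ripk2*, at -0.17 (-0.34 to -0.01), were also lower than under the limit. The *Ripk2* interval reached 0.02 when mitochondrial UMIs were left out of the totals. *Mlkl* was at 47.7 CPM (40.6 to 55.8) and *Fas* at 69.8 CPM (61.0 to 79.3), both still above the Ctrl and LP1 levels. *Ripk3* was at 10.6 CPM (7.36 to 14.7) from 35 UMIs, a log2 ratio of 0.53 (-0.01 to 1.03) to the cells under the limit, or 0.57 (0.03 to 1.07) when mitochondrial UMIs were left out of the totals. *Cflar* was at 600 CPM (574 to 627), within its interval of the cells kept.

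Other genes of these pathways were read from a list of 62, of which 59 had enough UMIs in Ctrl and LP4 together. At 4 hours 22 of the 59 were 1.5-fold or more above Ctrl and 8 below, where 20.7% of all genes compared were above and 29.4% below, with a median log2 ratio of 0.28 beside -0.15 over all genes. The counts of the groups below stand beside the same shares. At 1 hour 1 of 59 was 1.5-fold or more above Ctrl and 0 below, where 5.78% and 9.07% of all genes were, with a median of -0.01. The 1 gene was *Htra2*, a mitochondrial protease, named after its value was seen, with 21.9 CPM in Ctrl, 42.6 CPM in LP1 and 25.6 CPM in LP4.

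Among ligands and death receptors, 2 of 6 genes were higher at 4 hours and 1 lower. *Tnfsf10*, the gene of the death ligand TRAIL, was at 1.20 CPM in Ctrl, 1.05 CPM in LP1 and 15.5 CPM in LP4, a log2 ratio at 4 hours of 3.69 (3.25 to 4.16). *Tnf* was at 840 CPM in Ctrl, 1119 CPM in LP1 and 280 CPM in LP4, with log2 ratios to Ctrl of 0.41 (0.39 to 0.43) and -1.58 (-1.61 to -1.56). The ligand of Fas itself, *Fasl*, had 1, 1 and 3 UMIs in Ctrl, LP1 and LP4 and was not compared. It was named after its counts were seen.

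Among the adaptors and ubiquitin ligases of the receptor complexes 5 of 10 were higher and 2 lower. *Traf2*, which brings cIAP1 and cIAP2 to the receptor, had a log2 ratio of 1.36 (1.18 to 1.53), and *Sharpin*, a subunit of the linear ubiquitin ligase, one of -0.77 (-0.90 to -0.65). Its other subunit genes, named after their values were seen, went both ways, *Rnf31* at 1.14 (0.98 to 1.30) and *Rbck1* at -0.57 (-0.68 to -0.46). Of the kinases that act on or beside RIPK1, grouped with partner proteins that are not kinases themselves, 4 of 11 were higher and 1 lower. The highest and lowest of this group were both TAK1-binding subunits, *Tab2* at 1.29 (1.24 to 1.34) and *Tab1* at -1.25 (-1.48 to -1.01). *Tab3*, another such subunit named after its value was seen, was at 1.10 (0.91 to 1.30). Of the deubiquitinases and ubiquitin-binding brakes 1 of 6 was higher, *Tnip1* at 0.64 (0.61 to 0.67), and 1 lower, *Otulin*, which removes linear ubiquitin, at -1.01 (-1.06 to -0.95).

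Of the other RHIM proteins, which share the motif that links RIPK1 to RIPK3, and the regulators of *Ripk3* and *Mlkl*, 4 of 9 were higher and 0 lower. The highest of this group, which holds other genes beside those of RHIM proteins, was *Tlr3*, a receptor for double-stranded RNA, at 1.30 (1.11 to 1.49). The adaptor gene *Ticam1* was lowest at -0.58 (-0.77 to -0.39). Among the NOD receptors and partners of *Ripk2*, 2 of 5 were higher and 1 lower. *Nod1* was at 4.12 CPM in Ctrl, 3.33 CPM in LP1 and 26.5 CPM in LP4, a log2 ratio at 4 hours of 2.68 (2.44 to 2.94), while *Ripk2* beside it stayed level, and *Card9* was at -0.75 (-1.05 to -0.45). Of the caspases and executioners downstream of caspase-8, 4 of 12 were higher and 2 lower. *Bid*, a substrate of caspase-8, was at 1.35 (1.20 to 1.51), while *Gsdme*, the gene of a pore-forming gasdermin, was at -1.33 (-1.51 to -1.15).

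**Figure D5:**
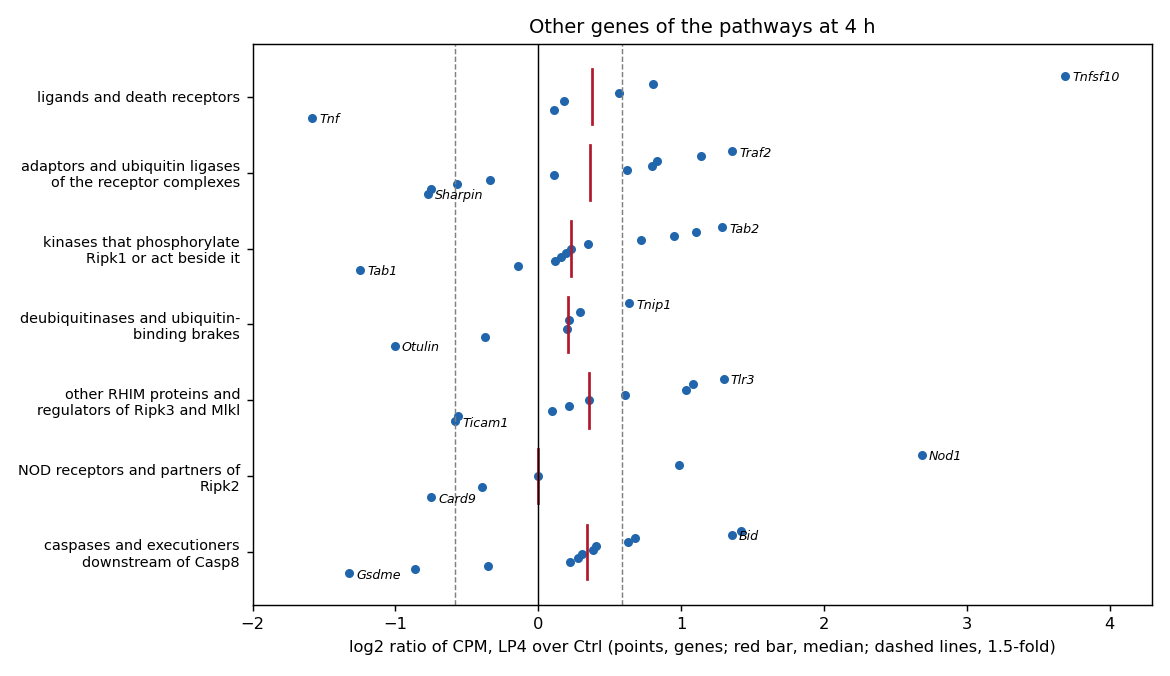
Log2 ratio of CPM for LP4 over Ctrl of the 59 pathway genes compared, by group. Points are genes, red bars are medians and dashed lines mark 1.5-fold. *Tnfsf10* (3.69) and *Nod1* (2.68) lie farthest to the right and *Tnf* (-1.58) farthest to the left.

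The genes whose level was most like that of a member were sought over 18 points, the 6 clusters in each of 3 libraries, among 3610 candidate genes. The points share libraries, so the correlation is a description. For *Mlkl* they were *Nsd3* (Pearson's r = 0.98), a histone methyltransferase gene, and *Nlrc5* (0.98), an activator of MHC class I genes. For *Casp8* they were *Cxcl10* (0.96), a chemokine gene, and *Il15* (0.96), a cytokine gene, and for *Fas* they were *N4bp1* (0.97) and *Acod1* (0.97), the gene of the enzyme that makes itaconate. *Nlrc5* was at 15.9, 12.1 and 174 CPM and *Cxcl10* at 20.1, 19.9 and 922 CPM in Ctrl, LP1 and LP4, so both were also highest at 4 hours. *Birc3* was most like *Ms4a6b* (0.94) and *Thbs1* (0.93), and *Ripk1* most like *Dock4* (0.91) and *Elf1* (0.90). The values were lower for *Cflar*, with *Marcksl1* (0.84) and *Eea1* (0.84), and for *Ripk2*, with *Rapgef2* (0.81) and *Lilrb4a* (0.81). *Ripk3* and *Birc2* did not reach the 50 CPM this required.

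The bases just upstream of the start sites are shown for the 3 members with the largest 4 hour ratios and for *Ripk3*, the one that went the other way. They are the 250 bases before the RefSeq start on GRCm38.p6, the build also called mm10, written 5′ to 3′ on the strand of the gene. Capitals mark matches to a searched motif. They lie at chr8:111338206-111338455 (minus strand) for *Mlkl*, chr19:34290409-34290658 (plus strand) for *Fas*, chr1:58802252-58802501 (plus strand) for *Casp8* and chr14:55788858-55789107 (minus strand) for *Ripk3*. The RefSeq start of *Casp8* lies 7128 bases inside the gene as GENCODE vM21 draws it, so its window is not upstream of the GENCODE start, from which the distance to *Cflar* was taken.
Mlkl: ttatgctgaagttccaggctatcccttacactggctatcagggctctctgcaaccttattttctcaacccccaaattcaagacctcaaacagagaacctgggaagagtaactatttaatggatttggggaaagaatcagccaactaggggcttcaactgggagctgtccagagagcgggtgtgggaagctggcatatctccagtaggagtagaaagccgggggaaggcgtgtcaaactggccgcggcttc
Fas: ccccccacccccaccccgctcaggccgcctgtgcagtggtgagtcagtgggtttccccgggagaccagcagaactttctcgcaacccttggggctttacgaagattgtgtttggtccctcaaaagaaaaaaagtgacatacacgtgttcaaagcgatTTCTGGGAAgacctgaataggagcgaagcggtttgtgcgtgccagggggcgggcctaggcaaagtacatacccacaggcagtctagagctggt
Casp8: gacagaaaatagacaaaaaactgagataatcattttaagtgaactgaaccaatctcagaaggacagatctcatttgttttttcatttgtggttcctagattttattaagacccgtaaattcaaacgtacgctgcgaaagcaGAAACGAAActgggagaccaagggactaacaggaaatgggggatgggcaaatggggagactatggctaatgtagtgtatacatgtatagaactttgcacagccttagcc
Ripk3: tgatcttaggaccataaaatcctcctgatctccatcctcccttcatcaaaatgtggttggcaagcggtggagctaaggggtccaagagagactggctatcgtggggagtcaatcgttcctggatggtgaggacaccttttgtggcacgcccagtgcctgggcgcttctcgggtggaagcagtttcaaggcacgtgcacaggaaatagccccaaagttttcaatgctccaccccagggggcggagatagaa

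Such windows were found for 8 of the 9 members, 10 windows in all. Both strands were searched for TTCNNNGAA, the GAS element of STAT factors, for the interferon-stimulated response element GAAANNGAAA, for GAAANGAAA, in which the repeats are 1 base closer, and for the κB consensus of NF-κB. The *Fas* window held 1 GAS match, TTCTGGGAA, at 93 to 85 bases before the start, and *Ripk1* held such matches in its second window. This motif was in 7.02% of the 32851 promoter windows searched. The *Casp8* window held GAAACGAAA at 109 to 101 bases before the start, and *Birc2* held the closely spaced repeat in its second window, where 2.68% of all windows did. No window of a member held the κB consensus or the wider spaced response element, which were in 7.25% and 2.98% of all windows, and the *Mlkl* and *Ripk3* windows held none of the motifs. A match is a description of the letters in these 250 bases.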

How the data were processed

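Single-cell RNA sequencing gave 1 library per condition (Ctrl, LP1, LP4). The authors aligned reads to mm10 with Cell Ranger (7.1.0 in the submitters' processing notes) and deposited raw UMI counts for each gene in each barcode. Whether introns were counted is not given in the sources used here. Kept were barcodes over 500 UMIs and over 500 genes whose mitochondrial share was under 5%, which are more cells than the study states for the same limits.

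CPM came from UMIs summed over cells. Intervals at 95% were exact: Poisson for CPM, conditional binomial for ratios and binomial for shares of cells. A count of 0 was read against a floor of 3 counts. Genes with at least 20 UMIs in a pair of libraries were compared, at 1.5-fold and 2-fold. Depth sets the precision, and *Ripk3* with 448 UMIs in LP4 has a wider interval than *Cflar* with 37077.

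For clustering, 2000 variable genes of 5210 with at least 200 UMIs were scaled to 10000 per cell, logged, centred within each library and clipped at 10 SD. Then 30 principal components, 20 neighbours and Leiden at a resolution of 0.5 were used (seed 20). A cluster was named by at least 3 markers among its 10 leading genes with at least 50 CPM, or as macrophage-like by 3 macrophage markers in at least 50% of cells. Doublets were kept, and an alternative left out the 5% of cells with the highest Scrublet scores.

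All 9 members were described. Pathway genes named are the highest and lowest of each group for LP4 over Ctrl, and those whose interval lies wholly beyond a log2 ratio of 1 in either direction; 1 of them is not reported here. Likeness is Pearson's r of log2(CPM + 1), and the 2 most alike genes were named for members with at least 50 CPM in a library. The members and lists were chosen with earlier results of these data known. Positions are those of GENCODE vM21, and promoter sequences are from RefSeq.

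The work used scanpy 1.11.5 and igraph 0.11.9 with scipy 1.17.1, numpy 2.4.6 and pandas 2.3.3 under Python 3.11.15, matplotlib 3.10.9, and edgeR 4.0.16 under R 4.3.3 (TMM factors only). Tested on simulated counts over 32285 genes with 200 changed, the direction was found for 100% in each comparison, and the true ratio lay in the interval for 93.5% (LP1 over Ctrl), 95.5% (LP4 over Ctrl) and 93.0% (LP4 over LP1). This checks the calculation only and does not bear on the spread between cultures, which was not measured. Alternatives were other cell filters, scalings, summaries over cells, minimum counts, depths of thinning and resolutions. The study's integration and pseudotime were not repeated, and its other experiments were not analysed here.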

Additional observations from a re-analysis of the deposited data

Results flagged for a closer look

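For 4 members the ratio to Ctrl had opposite directions at the 2 times, each with a counting interval that excludes 0. The share of all genes compared that did the same is not given here, so this count is not read as a trait of the members. *Ripk1* was at a log2 ratio of -0.17 at 1 hour and 0.19 at 4 hours, and *Birc3* at -0.27 and 0.19. *Mlkl* was at -0.23 and 2.11, and *Fas* at -0.41 and 1.96. Both ratios use the same Ctrl library, which was collected at 4 hours, and with 1 library per condition the difference between the times was not tested. The 4 genes were also on the same side of 0 at each time under TMM and median-of-ratios scaling, but the 1 hour interval of *Mlkl* then reached across 0, at -0.16 (-0.34 to 0.02) and -0.16 (-0.34 to 0.03).

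For LP4 over Ctrl, *Ripk2* had intervals on opposite sides of 0 in 2 macrophage-like clusters, at a log2 ratio of 0.29 in C and -0.13 in B. The difference between the clusters was not tested. With TMM factors B was at 0.04 (-0.07 to 0.15) and with median-of-ratios factors at 0.08 (-0.03 to 0.18), so the opposite directions depend on the scaling, and with the coarser grouping at a resolution of 0.3 no cluster had an interval below 0. With the finer grouping at a resolution of 0.8 intervals in CPM lay on both sides, at -0.16 (-0.28 to -0.04) and 0.81 (0.59 to 1.04). TMM and median-of-ratios factors raise every LP4 over Ctrl log2 ratio by 0.17 and 0.21, so the negative value also depends on the scaling.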

How the results depend on the processing

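Over 9 members, 3 comparisons and 9 alternatives, 243 log2 ratios were recomputed. Of these, 205 stayed within the counting interval of the reported value, 38 moved beyond it, and 2 of the 38 changed sign, both of *Ripk2* for LP4 over LP1 (0.07 with TMM factors and 0.10 with median-of-ratios factors). The ratio for LP4 over Ctrl ranged from 2.07 to 2.31 for *Mlkl*, 1.89 to 2.17 for *Fas*, 1.02 to 1.25 for *Casp8*, 0.87 to 1.13 for *Birc2* and -0.65 to -0.42 for *Ripk3*. It ranged from 0.21 to 0.44 for *Cflar*, 0.16 to 0.40 for *Birc3*, 0.16 to 0.40 for *Ripk1* and 0.05 to 0.28 for *Ripk2*. With TMM factors the members' median was 0.40 for LP4 over Ctrl and 0.56 for LP4 over LP1, and 0 members were 1.5-fold or more below Ctrl at 4 hours, beside 22.9% of all genes. With median-of-ratios factors these were 0.44, 0.59 and 0, the last beside 21.4% of all genes. With the mean of cell shares the medians were 0.26 and 0.42. The share of all genes 1.5-fold or more below Ctrl at 1 hour was 2.74% with a minimum of 10 CPM and 14.7% with no minimum. Without thinning, the share of cells with a UMI was higher in LP4 than in Ctrl beyond the intervals for 9 members, in place of 5. The number was 5 at 1000 UMIs per cell and 7 at 4000, a depth that left 4318 of 6071 Ctrl cells and 4537 of 4670 LP4 cells. LP4 cells held more UMIs per cell than Ctrl cells, so the unthinned number is not read as a difference in these genes. The share of all genes so separated is not given here for any depth. With the library scalings applied within clusters, a choice made after seeing the data, *Ripk2* for LP4 over Ctrl turned in B from -0.13 to 0.038 with TMM and 0.076 with median-of-ratios factors, while in C it went from 0.29 to 0.46 and 0.50. No paired analysis was possible because each condition is 1 library. No replicate could be left out for the same reason. The intervals cover counting error only, CPM gives shares of a library's RNA and not amounts per cell, and transcripts say nothing of the cleavage or phosphorylation through which these proteins act.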
